A study of Mus musculus with 13 samples.

Results

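The response of gamma delta intraepithelial lymphocytes to UC7-13D5, a hamster monoclonal that binds their T cell receptor (TCR), was measured as 1 effect averaged over mice given phosphate buffered saline (PBS) and mice given interferon alpha (IFNa). For each gene, the log2 difference between UC7-13D5 and control IgG was taken within the PBS libraries and within the IFNa libraries, and both differences were averaged with equal weight. Of the 21084 genes in the count table, 15835 passed the filter on low counts, and 15318 of these were autosomal and made up the set described here, in all 13 libraries of the series. The same average was computed without UC7-IFNa library 2, which stood apart from the others, over 15697 autosomal genes in 12 libraries.

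The cells were sorted from small intestines of wild-type mice. Each mouse first received 200 µg of UC7-13D5 or of Armenian hamster IgG by intraperitoneal injection. The treatment protocol places these injections 48 and 24 h before the cells were isolated, while the design text reads 48 or 24 h before the next injection. IFNa (1 µg) or PBS was then injected intravenously 5 h before isolation. IgG-PBS, UC7-PBS and UC7-IFNa held 3 libraries each and IgG-IFNa held 4. The titles call the libraries biological replicates, but whether a library was 1 mouse or several is not given in the sources used here, so the p-values measure the spread between these libraries. The age and sex of the mice are not given there either.

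Gamma delta intraepithelial lymphocytes sit between the epithelial cells of the gut and are known for constant surveillance of the epithelium, cytotoxic granules and the release of cytokines and repair factors. Their TCR signals through CD3 chains and the kinases Lck and Zap70 to calcium, NFAT, NF-κB and AP-1, which switch on early genes such as Nr4a1, Egr1, Fos and Myc. Antibodies that bind this receptor in living mice are used to take it off the cell surface or to block it, and the series title names TCR blockade as the question.

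Library totals ran from 19867201 to 26895876 estimated counts. Transcripts that mark sex split the libraries along with the antibody. The female transcript Xist stood at 265 to 345 CPM (counts scaled to library size alone) in IgG-PBS and at most at 1.08 in the 6 UC7 libraries, and the sum of 4 Y-linked genes was at most 0.310 in IgG-PBS and at least 132 in UC7. In the PBS arm, therefore, antibody and sex-linked transcripts cannot be told apart. In IgG-IFNa, libraries 1 and 2 had Xist at 204 and 215, and libraries 3 and 4 had Y-linked sums of 210 and 320 with Xist at 68.3 and 23.4. The averaged effect was therefore also computed with only these Y-positive IgG-IFNa libraries, which changes the IFNa arm but not the PBS arm. UC7-IFNa library 2 had the smallest total, 1.14% of counts in the ribosomal RNA gene Rn18s against at most 0.333% elsewhere, and a correlation of 0.891 and 0.906 with its group mates, which correlated at 0.988 with each other.

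With 13 libraries, 101 autosomal genes passed an adjusted p of 0.05 (edgeR quasi-likelihood test, Benjamini-Hochberg adjustment over the genes tested). Of these, 87 were higher (0.568% of the genes tested) and 14 lower (0.0914%) with UC7-13D5. With 12 libraries, 109 passed, 76 higher (0.484%) and 33 lower (0.21%). Both fits shared 71 calls, 58 higher and 13 lower, which is 70.3% of the first set and 65.1% of the second. The genes that were higher included the small GTPase Rac1, the sorting nexin Snx20, the lysosome-positioning GTPase Arl8a, the transcription factors Foxo1 and Gfi1 and the phosphatase Dusp2. The genes that were lower included Spp1, Capg, Tmprss6, Klrb1a and the AP-1 gene Fos. In a fit with the male transcript share as a covariate, 0 of the 101 passed with 13 libraries (edgeR quasi-likelihood, 971 genes at an unadjusted p under 0.05), although each kept its sign and the median ratio of the covariate value to the value without it was 1.09 for the genes called higher and 1.10 for those called lower. With 12 libraries and that covariate, 14 genes passed, 4 higher and 10 lower, 6 of them among the 109. This share, of Y-linked against Xist transcripts, was at most 0.0825% in IgG-PBS and at least 99.6% in UC7 libraries. Its coefficient therefore rested almost wholly on the IgG-IFNa libraries, where it was 0.958, 0.709, 73.9 and 92.6%. Calls lost in this fit, and the values it gives here and below, cannot separate sex from antibody.

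The typical size of the effect differed between the directions. Among the 87 genes called higher, the median averaged log2 fold change was 1.21, with a range of 0.51 to 3.51. Among the 14 called lower it was −1.01, from −1.82 to −0.41. The median over all autosomal genes was 0.0041. UC7 libraries lay above every IgG library within both arms for 70 of the 87, and below them for 10 of the 14. Over all genes tested, 142 (0.927%) lay above and 60 (0.392%) below in this way. Lack of overlap in both arms was also part of the rule by which genes with the largest changes were named below. For those genes it is a condition of the choice and no further support. The called genes also varied more between libraries of a group: the median within-group SD was 0.45 log2 units for the genes called higher and 0.38 for those called lower, against 0.25 for all 9078 autosomal genes whose mean log2 CPM reached 3.

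**Figure D1:**
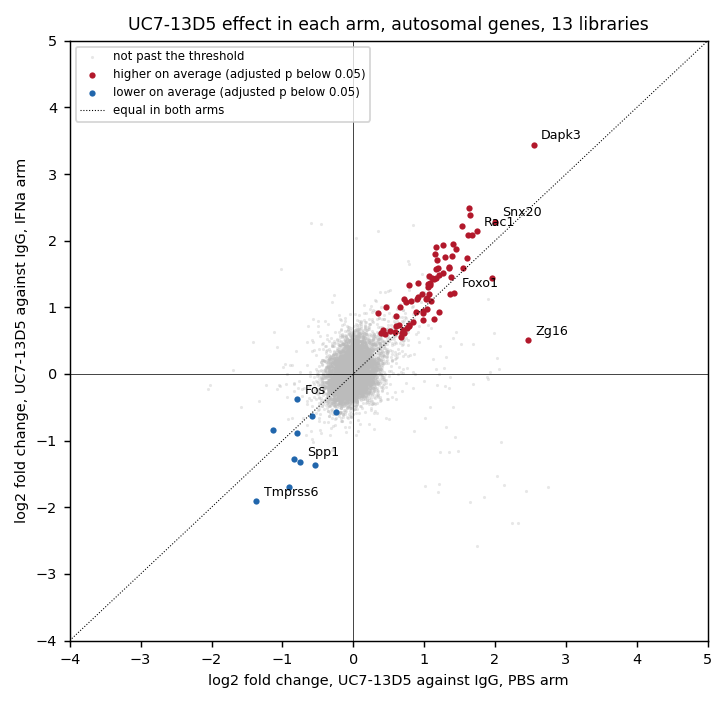
Each point is an autosomal gene whose mean log2 CPM reached 3 (9078 genes, 1 of them outside the axes), with the log2 fold change of UC7-13D5 against IgG in the PBS arm on the x axis and in the IFNa arm on the y axis, from the fit to 13 libraries. Plotted genes called in the average are coloured, and called genes below that level are not shown. All 87 called higher and 14 called lower, shown or not, have the same sign in both arms, which selection on the average favours.

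Upstream sequences of 2 genes called higher and 2 called lower are shown because the genes called higher differed from the rest in GC content near the transcript start, as described with the values further on. Each is the 250 bases before the RefSeq start in build GRCm38.p6, 5′ to 3′ on the gene's strand, with each CG dinucleotide in capitals. Arl8a lies at chr1:135146584-135146833 on the plus strand, Srsf9 at chr5:115326927-115327176 on the plus strand, Spp1 at chr5:104434861-104435110 on the plus strand (the more upstream of its 2 windows) and Klrb1a at chr6:128622935-128623184 on the minus strand.
Arl8a: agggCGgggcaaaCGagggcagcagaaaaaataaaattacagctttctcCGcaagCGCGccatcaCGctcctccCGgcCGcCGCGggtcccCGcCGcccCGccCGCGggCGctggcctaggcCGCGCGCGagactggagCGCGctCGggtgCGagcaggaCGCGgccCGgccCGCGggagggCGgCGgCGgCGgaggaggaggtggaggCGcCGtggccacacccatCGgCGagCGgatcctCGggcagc
Srsf9: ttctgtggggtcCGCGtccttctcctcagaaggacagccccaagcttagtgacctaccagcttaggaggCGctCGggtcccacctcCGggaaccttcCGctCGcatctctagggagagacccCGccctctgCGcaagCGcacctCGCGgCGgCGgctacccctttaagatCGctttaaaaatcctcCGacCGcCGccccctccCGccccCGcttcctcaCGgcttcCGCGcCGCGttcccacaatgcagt
Spp1: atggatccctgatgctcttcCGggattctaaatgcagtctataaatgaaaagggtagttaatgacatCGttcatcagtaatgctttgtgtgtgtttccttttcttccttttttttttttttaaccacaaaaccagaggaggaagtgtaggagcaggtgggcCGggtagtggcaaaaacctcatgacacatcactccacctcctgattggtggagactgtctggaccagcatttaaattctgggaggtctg
Klrb1a: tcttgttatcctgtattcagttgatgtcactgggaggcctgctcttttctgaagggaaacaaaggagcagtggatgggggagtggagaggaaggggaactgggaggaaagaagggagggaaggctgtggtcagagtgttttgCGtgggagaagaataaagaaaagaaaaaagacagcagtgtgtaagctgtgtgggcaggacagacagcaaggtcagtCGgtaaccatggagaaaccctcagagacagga
The windows of Arl8a and Srsf9 hold 39 and 25 CG dinucleotides, and those of Spp1 and Klrb1a hold 3 and 2. Over 32851 RefSeq windows of this length the median was 6, with quartiles of 2 and 16. Of these windows, 98.4% hold fewer than that of Arl8a, 89.3% fewer than that of Srsf9, 29.0% fewer than that of Spp1 and 18.8% fewer than that of Klrb1a. The GC share was 75.2% for Arl8a, 65.2% for Srsf9 and 43.6% for Spp1, with a median of 52.4% over the windows, and that of Klrb1a was just below this median. These 4 genes were chosen after their values were seen. A window was found for 72.4% of the genes called higher and 57.1% of those called lower, so the count of CG was not compared over whole sets.

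Among the genes that fell, Spp1 had the smallest adjusted p. Spp1 encodes osteopontin, a secreted cytokine and matrix protein, and lies at chr5:104582984-104588916 (mm39, plus strand). Levels here and below are CPM, counts per library size after scaling by the trimmed mean of M values (TMM). Spp1 was 85.5, 77.5 and 77.8 in IgG-PBS and 50.8, 39.8 and 52.1 in UC7-PBS. In IgG-IFNa it was 125, 129, 135 and 161, and in UC7-IFNa 55.3, 65.3 and 45.0. The groups did not overlap in either arm, and UC7-IFNa library 2 sat with its mates. The averaged log2 fold change was −1.04 (SE 0.12, adjusted p = 0.00128, edgeR quasi-likelihood) and −1.11 (SE 0.10, adjusted p = 9.93e-05) with 12 libraries. The call held whichever library was left out of either fit, and with the Y-positive IgG-IFNa libraries alone the value was −1.09.

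Capg encodes an actin-capping protein of the gelsolin family, at chr6:72521374-72539966 (mm39, plus strand). It was 31.4, 28.3 and 23.2 in IgG-PBS, 16.1, 12.02 and 18.2 in UC7-PBS, 47.8, 40.1, 37.1 and 34.7 in IgG-IFNa, and 13.9, 22.8 and 12.7 in UC7-IFNa. Again no UC7 library reached the lowest IgG library of its arm. Averaged over both arms, the log2 fold change was −1.06 (SE 0.16, adjusted p = 0.00715, edgeR quasi-likelihood), or −1.22 (SE 0.13, adjusted p = 0.000439) with 12 libraries and −0.99 with the Y-positive IgG-IFNa libraries. With the male share covariate the 13-library values were −0.78 for Capg and −1.27 for Spp1. Neither passed (adjusted p = 0.659 and 0.0875, edgeR quasi-likelihood). With 12 libraries and that covariate, Spp1 passed and Capg did not. Spp1 and Capg were the 2 of 109 genes that kept their call in each of the 12 single-library omissions from the smaller fit. There, leaving out UC7-IFNa 1 or 3 leaves that group with 1 library, which is assumed to vary like the other groups, here and in the 12-library omissions given below. In the 13-library fit, 22 of 101 genes did, 17 higher and 5 lower.

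Those 5 were Spp1, Capg, Tmprss6, Ighd and P4ha2. Tmprss6, at chr15:78323867-78352834 (mm39, minus strand), encodes matriptase-2, a membrane serine protease known from iron regulation in liver. It was 27.7, 21.2 and 30.9 in IgG-PBS and 10.3, 5.89 and 14.7 in UC7-PBS. With IFNa it was 42.3, 32.8, 49.3 and 75.4 after IgG and 10.8, 17.5 and 11.6 after UC7-13D5. Its averaged log2 fold change was −1.64 (SE 0.23, adjusted p = 0.00593, edgeR quasi-likelihood), and −1.77 with 12 libraries. Ighd, the constant region of immunoglobulin D, ran from 6.74 to 20.5 in the 7 IgG libraries and from 4.29 to 6.10 in the 6 UC7 libraries (−1.30, SE 0.20, and −2.06 with the male share covariate). The summed level of B and plasma cell markers (11 of 16 in the table) was 449 to 636 CPM in IgG-PBS, 465 to 547 in UC7-PBS, 583 to 612 in IgG-IFNa and 529 to 926 in UC7-IFNa, and its part in the Ighd result was not tested. P4ha2, a collagen prolyl hydroxylase subunit, ran from 7.79 to 13.3 in the IgG libraries and from 2.98 to 7.05 in the UC7 libraries (−1.21, SE 0.20).

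Klrb1a, at chr6:128586190-128600496 (mm39, minus strand), encodes a C-type lectin receptor of the NK1.1 family. It was 88.9, 82.0 and 89.5 in IgG-PBS, 59.4, 36.3 and 54.1 in UC7-PBS, 64.8, 56.9, 86.7 and 92.5 in IgG-IFNa, and 30.8, 55.3 and 35.8 in UC7-IFNa. The groups were separate in both arms, although by a small margin with IFNa, where the highest UC7 library had 55.3 and the lowest IgG library 56.9. On average, the log2 fold change was −0.84 (SE 0.17, adjusted p = 0.0301, edgeR quasi-likelihood), and −0.99 (SE 0.14, adjusted p = 0.00501) with 12 libraries. The 13-library call was lost when IgG-PBS 1 or 3, UC7-PBS 2, IgG-IFNa 3 or 4, or UC7-IFNa 3 was left out, with values from −0.99 to −0.75 over the omissions. With the male share covariate the 13-library value was −1.36 and did not pass (adjusted p = 0.279, edgeR quasi-likelihood), and the 12-library value was −1.504 and did (adjusted p = 0.00723). Car2, a carbonic anhydrase expressed far above these genes, moved least among the 14 (675 to 832 in UC7 libraries, 858 to 1074 in IgG libraries, −0.41, SE 0.09). It kept its call in 1 of 13 omissions, that of UC7-IFNa 2, with values from −0.43 to −0.39.

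Fos was the 1 gene of the immediate early and heat-shock list that fell in both fits. Fos, which forms AP-1 with Jun proteins, was 1727, 1369 and 1425 in IgG-PBS and 905, 914 and 798 in UC7-PBS. With IFNa it was 799.9, 878, 643 and 661 after IgG and 543, 579 and 599.7 after UC7-13D5. The UC7 libraries were below all IgG libraries of their arm, and IgG-PBS stood highest of the 4 groups. The averaged log2 fold change was −0.58 (SE 0.11, adjusted p = 0.0218, edgeR quasi-likelihood) and −0.59 (SE 0.10, adjusted p = 0.0158) with 12 libraries. Values over the omissions from the 13-library fit ran from −0.62 to −0.53, and the call was lost without IgG-PBS 1 or 3, UC7-PBS 1, 2 or 3, IgG-IFNa 2 or UC7-IFNa 3. With the Y-positive IgG-IFNa libraries alone the value was −0.49 and did not pass, and with the male share covariate it was −0.24 (adjusted p = 0.938, edgeR quasi-likelihood).

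Myc, a transcription factor of growth and metabolism, was 152, 132 and 163 in IgG-PBS, 110.2, 69.5 and 93.7 in UC7-PBS, 76.4, 104, 56.7 and 61.9 in IgG-IFNa, and 48.2, 52.2 and 41.2 in UC7-IFNa. It passed with 12 libraries (−0.73, SE 0.15, adjusted p = 0.0356, edgeR quasi-likelihood) and not with 13 (−0.69, adjusted p = 0.0528). The 12-library call was lost without IgG-PBS 1 or 3, UC7-PBS 2 or 3, or UC7-IFNa 1 or 3, with values from −0.81 to −0.63. With the male share covariate it was −0.16 (adjusted p = 0.81, edgeR quasi-likelihood).

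The cytokine genes Csf2, which encodes GM-CSF, and Tnf were low in these cells and fell in the 12-library fit. Csf2 was 13.7, 4.86 and 13.0 in IgG-PBS, 2.81, 2.17 and 3.37 in UC7-PBS, 2.45, 4.64, 3.67 and 4.40 in IgG-IFNa, and 0.827, 8.25 and 0.684 in UC7-IFNa. UC7-IFNa library 2 held the value of 8.25, above every IgG-IFNa library. Averaged over both arms, the log2 fold change was −2.12 (SE 0.29, adjusted p = 0.00389, edgeR quasi-likelihood) without that library and −1.09 (adjusted p = 0.556) with it. Leaving out UC7-IFNa 3 as well gave −2.06 (adjusted p = 0.0652). Tnf ran from 1.42 to 7.95 in the IgG libraries and from 0.315 to 2.98 in the UC7 libraries, and its 12-library value was −1.67 (SE 0.32, adjusted p = 0.0247). It did not pass with 13 libraries (adjusted p = 0.15), nor from the 12 without IgG-PBS 1 (−1.43), UC7-IFNa 1 (−1.42) or UC7-IFNa 3 (−2.02).

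Of 28 immediate early and heat-shock genes tested, 8 fell and 0 rose with 12 libraries, where 0.21% of all genes tested were called lower, and the list's median was −0.58 beside −0.017 for all genes. The list was chosen with earlier results of these data known, so these values describe it and do not test it. The 8 were Fos, Fosb, Zfp36, Hsp90aa1, Hsp90ab1, Hspa8, Hspe1 and Dnajb4. Fosb is a further AP-1 subunit (−0.72), Zfp36 encodes the RNA-binding protein tristetraprolin (−0.61), and the other 5 are chaperones or cochaperones. The call of Zfp36 was lost without UC7-IFNa 3 (−0.60), and that of Fosb without IgG-PBS 1 or 3, UC7-PBS 1, or UC7-IFNa 1 or 3 (−0.78 to −0.64 over the omissions). Hspa8 (−0.66) kept its call in 3 of 12 omissions (IgG-PBS 2, IgG-IFNa 1 and IgG-IFNa 3) and Hsp90ab1 (−0.58) in 3 (UC7-PBS 1, IgG-IFNa 1 and IgG-IFNa 3), with values from −0.80 to −0.54 and from −0.69 to −0.48. Dnajb4 (−0.59) lost its call without IgG-PBS 1 or 3, UC7-PBS 2, or UC7-IFNa 1 or 3 (−0.67 to −0.53). With the male share covariate the 12-library values were −0.34 for Fosb, −0.40 for Zfp36 and −1.19 for Hspe1, of which Hspe1 passed. With 13 libraries, Fos alone passed and the median was −0.39 beside 0.0041. Hspe1, the mitochondrial cochaperonin, was 91.4, 81.8 and 74.0 in IgG-PBS, 44.2, 40.4 and 42.5 in UC7-PBS, 47.8, 73.0, 65.1 and 94.8 in IgG-IFNa, and 42.0, 141 and 51.3 in UC7-IFNa. In UC7-IFNa the value of 141 belongs to library 2. Without it the averaged log2 fold change was −0.78 (SE 0.14, adjusted p = 0.0162, edgeR quasi-likelihood), and with it −0.40 (adjusted p = 0.742). The 12-library call of Hspe1 was also lost without IgG-PBS 1 (−0.74), UC7-IFNa 1 (−0.71) or UC7-IFNa 3 (−0.86). Hsp90aa1 was at −0.81 (SE 0.14, adjusted p = 0.0163) with 12 libraries and −0.55 (adjusted p = 0.416) with 13, and its 12-library call was lost without UC7-IFNa 1 (−0.75) or 3 (−0.88). Near-copies of heat-shock genes, among them the pseudogenes Gm12346, Gm8355 and Gm15459, were also called lower with 12 libraries, and the counting could have split reads between them and their parent genes.

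**Figure D2:**
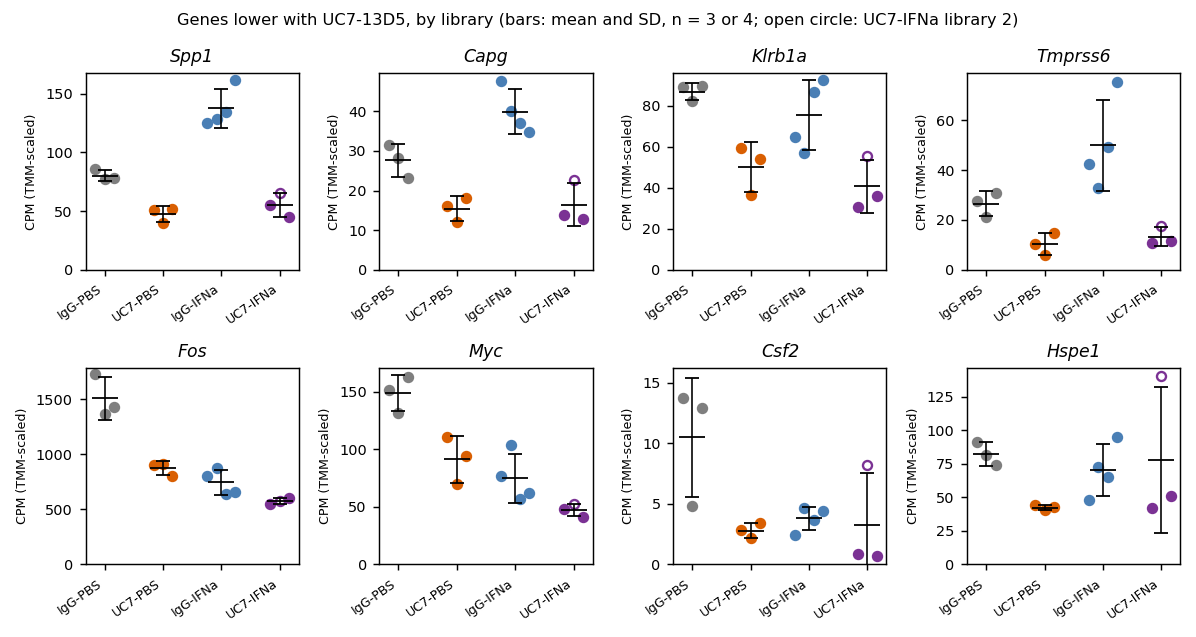
TMM-scaled CPM of 8 genes lower with UC7-13D5, by group (x axis) and library (points), with bars for the mean and SD (n = 3 or 4) and an open circle for UC7-IFNa library 2. Spp1, Capg, Klrb1a, Tmprss6 and Fos separate UC7 from IgG libraries in both arms, which the rule for naming genes favours. The open circle lies above its mates for every gene but Fos, and above every IgG-IFNa library for Csf2 (8.25) and Hspe1 (141).

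Snx20 and Rac1 were among the genes with the largest rise. Snx20, a sorting nexin that binds the selectin ligand PSGL-1, lies at chr8:89353191-89362756 (mm39, minus strand). It was 16.2, 37.8 and 17.2 in IgG-PBS and 118, 107 and 59.0 in UC7-PBS. With IFNa it was 36.8, 22.4, 26.2 and 26.1 after IgG and 61.7, 199.5 and 146 after UC7-13D5. The groups were separate in both arms, and UC7-PBS 3 and UC7-IFNa 1 were the lowest UC7 libraries of their groups. On average, the log2 fold change was 2.14 (SE 0.27, adjusted p = 0.00395, edgeR quasi-likelihood), and 1.94 (SE 0.31, adjusted p = 0.027) with 12 libraries.

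Rac1, a small GTPase that drives actin assembly, lies at chr5:143489389-143513791 (mm39, minus strand). It was 47.2, 97.5 and 77.1 in IgG-PBS, 303, 300.1 and 137 in UC7-PBS, 80.2, 42.2, 63.0 and 47.0 in IgG-IFNa, and 126, 356 and 289 in UC7-IFNa. The same pair of UC7 libraries, UC7-PBS 3 and UC7-IFNa 1, was again the lowest of its groups but above all IgG libraries. The averaged log2 fold change was 1.94 (SE 0.26, adjusted p = 0.00538, edgeR quasi-likelihood), and 1.78 (SE 0.31, adjusted p = 0.0372) with 12 libraries. Arl8a, a GTPase that moves lysosomes along microtubules, was 6.39, 8.63 and 9.29 in IgG-PBS, 23.7, 28.4 and 14.4 in UC7-PBS, 8.82, 5.19, 7.03 and 5.82 in IgG-IFNa, and 13.8, 30.9 and 29.3 in UC7-IFNa. Its averaged log2 fold change was 1.66 (SE 0.22, adjusted p = 0.00395) and 1.56 (adjusted p = 0.00389) with 12 libraries. Srsf9, a splicing factor, ran from 10.3 to 17.8 in the IgG libraries and from 22.98 to 67.8 in the UC7 libraries, with an averaged log2 fold change of 1.67 (SE 0.22) and 1.53 with 12 libraries. With the Y-positive IgG-IFNa libraries alone the 13-library values were 2.19 for Snx20, 1.98 for Rac1, 1.69 for Arl8a and 1.68 for Srsf9.

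Among 23 quiescence and memory factors, Foxo1 and Gfi1 rose in both fits. Of all autosomal genes tested, 0.568% were called higher with 13 libraries and 0.484% with 12. The list was chosen with earlier results of these data known. Foxo1, which maintains the naive and resting programme in T cells, lies at chr3:52175757-52260642 (mm39, plus strand). It was 95.3, 153 and 132 in IgG-PBS, 423, 331 and 266 in UC7-PBS, 199, 163, 271 and 267 in IgG-IFNa, and 307, 684 and 578 in UC7-IFNa. The groups did not overlap within an arm, but the lowest UC7-IFNa library was close to the highest IgG-IFNa library. Averaged over both arms, the log2 fold change was 1.32 (SE 0.19, adjusted p = 0.00678, edgeR quasi-likelihood), and 1.19 (SE 0.19, adjusted p = 0.0162) with 12 libraries. Gfi1, a zinc-finger repressor of lymphocyte differentiation, at chr5:107864523-107873902 (mm39, minus strand), was 31.9, 44.4 and 39.3 in IgG-PBS, 65.3, 85.8 and 63.8 in UC7-PBS, 44.7, 22.3, 33.3 and 30.0 in IgG-IFNa, and 68.4, 68.4 and 76.2 in UC7-IFNa. Its averaged log2 fold change was 1.01 (SE 0.15, adjusted p = 0.00678), and 1.02 (adjusted p = 0.00501) with 12 libraries. The UC7-IFNa values of Gfi1 were close together, library 2 included. The Y-positive IgG-IFNa libraries gave 1.19 for Foxo1 and 1.03 for Gfi1. Foxo1 was 0.80 and Gfi1 1.10 with the male share covariate, and neither passed.

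Dusp2, a phosphatase that acts on MAP kinases and is itself induced by T cell activation, was the 1 gene of the early TCR response list that rose. It was 15.9, 31.1 and 16.3 in IgG-PBS, 49.8, 68.6 and 37.1 in UC7-PBS, 20.02, 8.87, 11.6 and 8.92 in IgG-IFNa, and 28.4, 55.5 and 40.7 in UC7-IFNa. On average, the log2 fold change was 1.52 (SE 0.24, adjusted p = 0.00897, edgeR quasi-likelihood). The transcriptional corepressor Ctbp1 rose by 1.40 (SE 0.20), and its IgG libraries ran from 46.0 to 96.7 against 123 to 219.95 in UC7 libraries. These genes, with Snx20, Rac1, Arl8a, Srsf9, Foxo1 and Gfi1, were among the 17 genes called higher whichever of the 13 libraries was left out. Dexi (1.88), the deubiquitinase Otud1 (1.48), Fam241a (1.41) and the chromatin remodelling subunit Actr5 (1.29) belonged to the same 17. Otud1 was 0.87 and Actr5 0.80 with the male share covariate.

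Other raised genes depended on single libraries. Arf6, a GTPase of endocytic recycling, was 63.9, 181, 102, then 398, 475 and 204 in the PBS arm after IgG and UC7-13D5, and 148, 47.8, 49.8, 46.7, then 199, 654 and 378 in the IFNa arm. Its averaged log2 fold change was 2.06 (SE 0.38, adjusted p = 0.0301, edgeR quasi-likelihood). It kept its call in 4 of 13 omissions, those of IgG-PBS 2, UC7-PBS 3, IgG-IFNa 1 and UC7-IFNa 1, with values from 1.80 to 2.36 over the 13, and without UC7-IFNa 2 it was 1.80 (adjusted p = 0.16). Lamp1, a lysosomal membrane protein that reaches the surface when cytotoxic granules are released, rose by 1.58 (adjusted p = 0.0126), but the call was lost without UC7-PBS 2 (1.54) or UC7-IFNa 2 (1.498). Cited2, a transcriptional coregulator, rose by 1.88, a call lost without UC7-IFNa 2 (1.64, adjusted p = 0.0577). Bcl11b, the T lineage factor, rose by 0.63 (SE 0.13, adjusted p = 0.0363), and by 0.61 with 12 libraries, but kept the 13-library call in 4 of 13 omissions (UC7-PBS 3, IgG-IFNa 1, UC7-IFNa 1 and UC7-IFNa 2), with values from 0.56 to 0.70. With the male share covariate the 13-library values were 1.20 for Bcl11b and 2.43 for Lamp1, neither past the threshold.

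**Figure D3:**
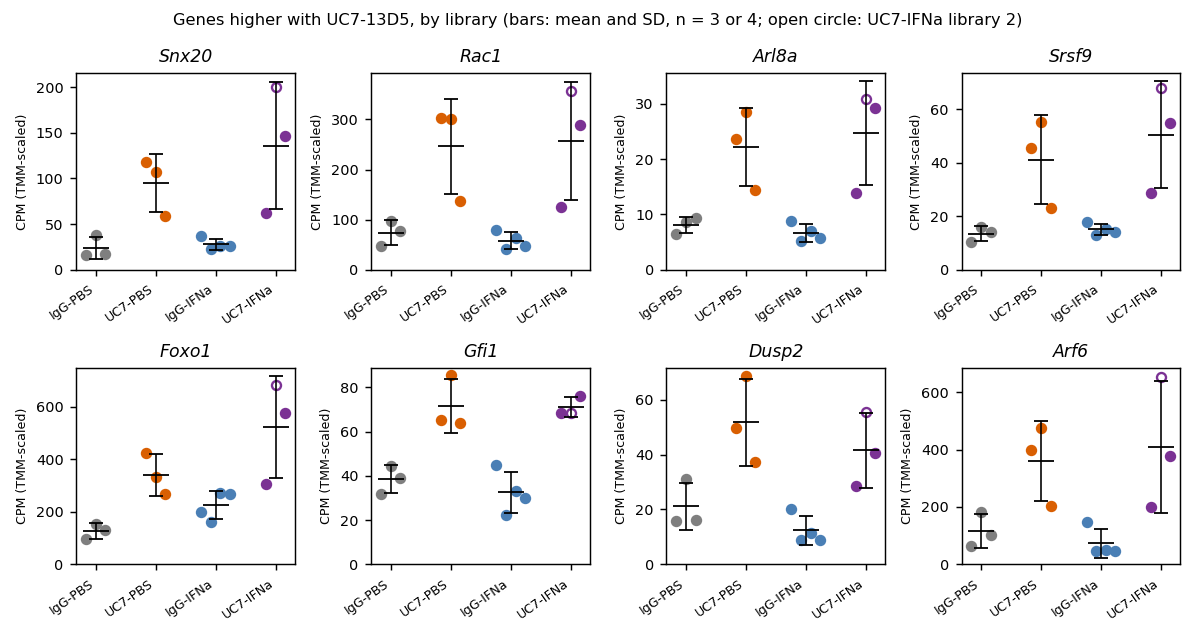
TMM-scaled CPM of 8 genes higher with UC7-13D5, by group (x axis) and library (points), with bars for the mean and SD (n = 3 or 4) and an open circle for UC7-IFNa library 2. UC7 libraries lie above IgG libraries within each arm for all 8, which the rule for naming genes favours. The open circle is the highest UC7-IFNa library for 7 of them, Gfi1 being the exception.

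Within single arms fewer genes passed. In the PBS arm, 0 autosomal genes (0%) were called with 13 libraries (edgeR quasi-likelihood), with 62 calls by DESeq2. An unadjusted p under 0.05 was reached by 766 of 15318 genes, close to the share of 0.05 expected by chance alone. In the IFNa arm 11 were called (0.0718%), 6 higher and 5 lower. These were Snx20 (2.29), Rac1 (2.15), 2510039O18Rik (1.95), Arl8a (1.87), Srsf9 (1.74) and Ctbp1 (1.59) upwards, and Tmprss6 (−1.91), Map2 (−1.84), Ighd (−1.69), Spp1 (−1.32) and Capg (−1.28) downwards. With 12 libraries, Spp1 (−1.46) and Capg (−1.60) passed in the IFNa arm (0.0127%) and 1 gene in the PBS arm (0.00637%). The arms share no library, and their log2 fold changes correlated across genes at r = 0.318 with 13 libraries and 0.191 with 12. Genes are not independent replicates, and both arms share the split of sex-linked transcripts in full or in part.

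The test of the difference between arms called 0 autosomal genes with 13 and with 12 libraries (edgeR quasi-likelihood), and 3 by DESeq2 with 13. An unadjusted p under 0.05 was reached by 486 of 15318 and 698 of 15697 genes. Neither count exceeds the share of 0.05 expected by chance alone. For Spp1 the fall was −0.76 with PBS and −1.32 with IFNa, a difference with an unadjusted p of 0.026 and an adjusted p of 1. A p that misses the threshold does not show that the arms were alike.

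The receptor itself and its signalling chain showed no call. Trdc, the delta constant region, was 177, 159 and 209 in IgG-PBS, 211, 204 and 199 in UC7-PBS, 166, 175, 179.7 and 195 in IgG-IFNa, and 184, 204.5 and 185 in UC7-IFNa. The groups overlapped in both arms, and the averaged log2 fold change was 0.13 (SE 0.09, adjusted p = 0.784, edgeR quasi-likelihood). Of 10 constant region and CD3 genes and 17 variable segments tested, 0 passed in either fit, and at an unadjusted p under 0.05 there were 1 and 3 with 13 libraries. Of 34 proximal signalling genes 0 passed as well (3 unadjusted, 13 libraries), with Lck at −0.04 and Zap70 at −0.02. The medians of these lists with 13 libraries were 0.16, 0.19 and 0.0092, beside 0.0041 for all genes. With 12 libraries they were −0.0035, 0.16 and 0.012, beside −0.017, so the shift of the constant region and CD3 list was not seen without UC7-IFNa library 2. These are transcript levels, and say nothing of receptor protein at the surface. Of 30 genes of receptor internalization and recycling, Arf6 and Lamp1 rose with 13 libraries and 0 passed with 12. Of all autosomal genes tested, 0.568% were called higher with 13 libraries.

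Downstream of the receptor, 34 genes of the early TCR response had a median of −0.22 with 13 libraries and −0.28 with 12, and 28 of the 34 were negative with 12. With 12 libraries Tnf, Rgs16 and Myc fell and Dusp2 rose, and with 13 Rgs16 fell and Dusp2 rose. The calls of this list and those below can be read against the shares over all autosomal genes tested. With 12 libraries these were 0.21% lower and 0.484% higher, and with 13 libraries 0.0914% lower and 0.568% higher. The lists were chosen with earlier results of these data known. Rgs16, a regulator of G protein signalling, was −0.99 with 13 libraries and −0.91 with 12, and it kept the 13-library call in 3 of 13 omissions (IgG-PBS 2, IgG-IFNa 3 and UC7-IFNa 2), with values from −1.12 to −0.88. Nr4a1, an orphan nuclear receptor used as a readout of TCR signalling, was −0.44 (adjusted p = 0.428, edgeR quasi-likelihood), Egr1 −0.33 and Cd69 −0.38, none past the threshold. Of 25 calcium and NFAT genes, the endoplasmic reticulum calcium pump Atp2a2 rose with 12 libraries (0.61) and 0 passed with 13. Its call was lost without IgG-PBS 1 or 3, UC7-PBS 1, IgG-IFNa 2 or 4, or UC7-IFNa 3, with values from 0.51 to 0.68. Of 23 cytokines, chemokines and repair factors, Spp1 fell with 13 libraries and Spp1, Csf2 and Tnf fell with 12, where the median was −0.29. Ifng was −0.46 with 13 libraries and −0.60 (adjusted p = 0.0981) with 12.

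Few effector and residency genes passed the test. Over all autosomal genes, 1232 of 15318 reached an unadjusted p under 0.05 with 13 libraries, against which the unadjusted counts of the lists can be read. The shares called were 0.568% higher and 0.0914% lower with 13 libraries, and 0.484% higher and 0.21% lower with 12. Of 22 cytotoxic effectors, Lamp1 rose with 13 libraries and 0 passed with 12, and 4 reached an unadjusted p under 0.05 with 13. Gzma was 0.29, Gzmb 0.14 and Prf1 0.10 with 13 libraries. Klrb1a was the call among 26 natural killer receptors in the 13-library fit, where 6 members were higher and 5 lower at an unadjusted p under 0.05 and values ran from −0.84 to 1.52. Among inhibitory receptors (19 tested), costimulatory receptors (20), chemokine and egress receptors (16), integrins and retention genes (28) and interleukin 2, 7 and 15 signalling (22), 0 passed in either fit. With 13 libraries, 3, 5, 4, 4 and 1 of their members, in that order, reached an unadjusted p under 0.05. Itgae, the αE integrin that holds these cells in the epithelium, was −0.15 and Cd8a 0.05. Foxo1 and Gfi1 were the calls among 23 quiescence and memory factors, and Bcl11b the call among 22 lineage factors, in both fits. Rac1 rose and Capg fell among 44 genes of actin and migration in both fits.

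Of 35 cell cycle genes, 24 glycolytic, 28 lipid, 31 apoptosis and 28 unfolded protein response genes, 0 passed in either fit, and 0 to 3 of each reached an unadjusted p under 0.05 with 13 libraries. The 68 genes of oxidative phosphorylation had a median of 0.14 with 13 libraries (59 positive) and −0.070 with 12 (61 negative). The 74 ribosomal protein genes had medians of 0.18 (66 positive) and −0.10 (70 negative), beside 0.0041 and −0.017 for all genes. The sign of both medians thus turned with UC7-IFNa library 2, and 0 of their members passed in either fit or reached an unadjusted p under 0.05 with 13 libraries.

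**Figure D4:**
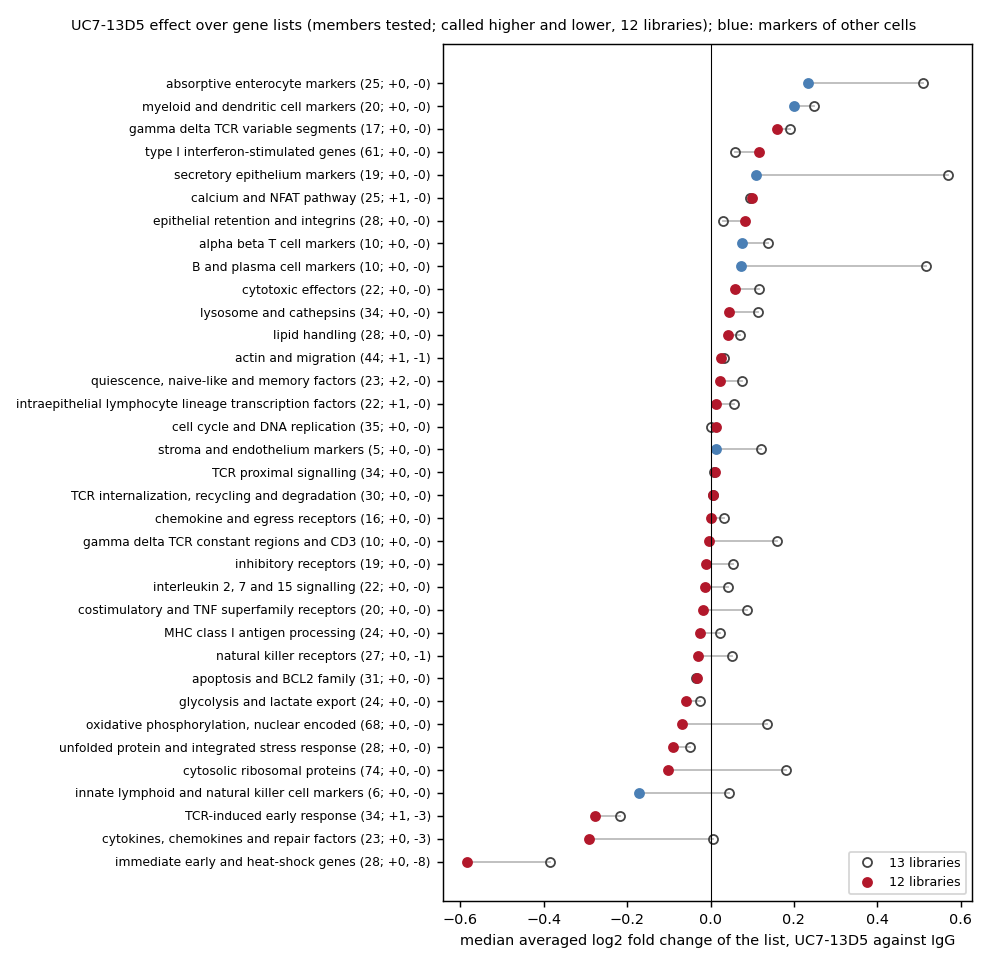
Median averaged log2 fold change of UC7-13D5 against IgG (x axis) of each gene list (rows), from the fits to 13 and to 12 libraries, with the members tested and the 12-library calls beside each name and marker lists of other cell types in blue. Immediate early and heat-shock genes lie lowest, at −0.39 and −0.58, and the marker lists of enterocytes, secretory epithelium and B cells move toward 0 without UC7-IFNa library 2.

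Transcripts of other cells moved with the groups in part. In bulk samples, fewer cells of a type and less RNA per cell cannot be told apart. The summed level of absorptive enterocyte markers (27 of 28 in the table) was 789 to 1015 CPM in IgG-PBS, 1235 to 1293 in UC7-PBS, 1379 to 1703 in IgG-IFNa and 1297 to 1425 in UC7-IFNa. Secretory epithelium markers (19 of 19) summed to 126 to 849, 1057 to 2753, 800.4 to 1575 and 430.4 to 1321 in the same order. Epithelial transcripts were thus higher with UC7-13D5 in the PBS arm and overlapped in the IFNa arm, and their part in the results above was not tested. Zg16, a lectin secreted by goblet cells, was called higher on average with 13 libraries (1.49, adjusted p = 0.0302, edgeR quasi-likelihood), from 2.47 with PBS and 0.50 with IFNa. It lost the call without UC7-IFNa 2 (1.21, adjusted p = 0.188), and kept it in 4 of 13 omissions (IgG-PBS 3, UC7-PBS 1, IgG-IFNa 3 and UC7-IFNa 3), with values from 1.21 to 1.69. The male share covariate gave 0.89. Markers of alpha beta T cells summed to 1700 to 2341 in IgG and 1761 to 2488 in UC7 libraries. Myeloid markers summed to 270 to 300 in IgG-PBS, 289 to 390 in UC7-PBS, 228 to 365 in IgG-IFNa and 350 to 358 in UC7-IFNa. Innate lymphoid and natural killer markers summed to 263 to 331, 171 to 321, 225 to 330 and 143 to 257 in the same order. Stromal markers summed to 113 to 162 in IgG and 132 to 177 in UC7 libraries. S100a8 was at 0 in IgG-PBS, IgG-IFNa and UC7-IFNa, Flt3 at 0 in IgG-PBS, and Col3a1 and Kdr at 0 in UC7-IFNa.

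As a set, the genes that rose had a GC-richer 5′ untranslated region (UTR) than the rest, a property the calls did not use. Their median GC share there was 76.7% with 13 libraries (94.3% of them have a value) and 77.2% with 12, against 65.0% for all 9078 autosomal genes of mean log2 CPM at least 3. For the genes called lower with 12 libraries it was 60.3%. With 13 libraries too few of the lowered genes have a value (78.6%), so that check is void. Shares called by GC bin are over the 8303 of the 9078 genes that have a 5′ UTR GC value. With 13 libraries, 0.676% of genes with a 5′ UTR GC share up to 50% were called higher (4 of 592 genes), 0.195% at 50 to 60%, 0.426% at 60 to 70%, 1.48% at 70 to 80% and 4.22% above 80% (19 of 450 genes). The median GC share of the genes called higher with 13 libraries was also above that of the 9078 genes over the coding part (57.1% against 52.5%). Over the whole transcript it was 53.4% against 50.2%. Their median transcript length, 2760 bases, was close to the 2799 bases of the 9078 genes. With 12 libraries the length was 3155 bases against 2800.5.

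Library by library, the slope on 5′ UTR GC share was taken for log2 CPM centred per gene over the 13 libraries. By the centring these slopes average 0, so a sign is relative to the other libraries. The slope was positive in each of the 6 UC7 libraries, from 0.0042 to 0.0413 per 10 percentage points. It ran from −0.0410 to 0.0070 in the IgG libraries. Of these, IgG-PBS 3 alone was positive, and it lay above UC7-PBS 2 (0.0068) and UC7-IFNa 1 (0.0042). UC7-IFNa library 2 stood apart on GC share over the whole transcript, with a slope of 0.369 against −0.102 to 0.0469 in the other 12. With 5′ UTR GC share as an offset, an adjustment chosen after seeing the data, 82 genes were called with 13 libraries, 72 higher and 10 lower. Of the 101 calls, 93 have a 5′ UTR GC value and could be fitted, and 79 were kept, with median ratios to the values without the offset of 0.96 (higher) and 0.97 (lower). With 12 libraries 79 were called, 54 higher and 25 lower, with 77 shared, where 70 of the 76 genes called higher and 27 of the 33 called lower have a value.

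**Figure D5:**
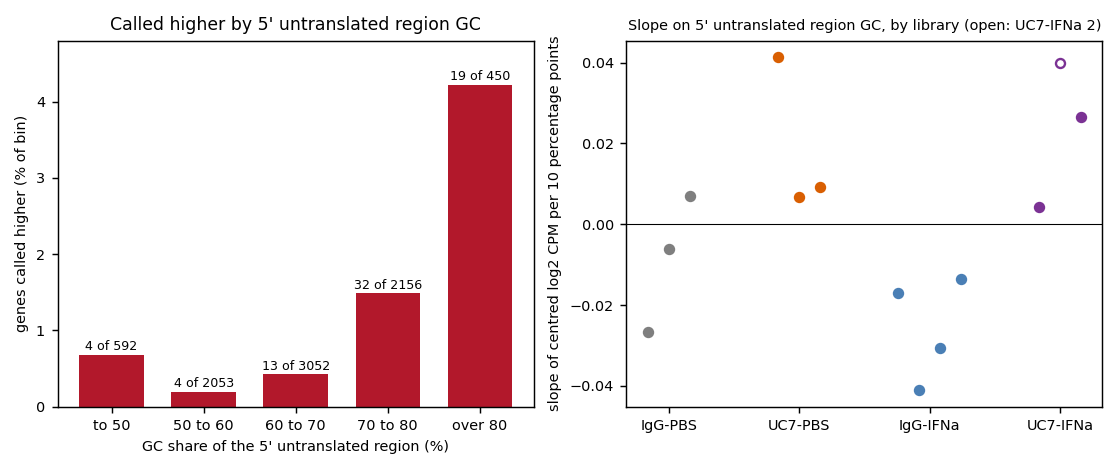
Left, the percentage of autosomal genes of mean log2 CPM at least 3 called higher with 13 libraries (y axis) in bins of 5′ UTR GC share (x axis, %). Right, each library's slope of centred log2 CPM per 10 percentage points of that share (y axis) by group, with an open circle for UC7-IFNa library 2. The percentage reaches 4.22% above 80% GC. All 6 UC7 slopes and that of IgG-PBS 3 are above 0, which by the centring is the average over the 13 libraries.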

How the data were processed

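RNA of sorted gamma delta intraepithelial lymphocytes was extracted with RNeasy and converted with SMART-Seq HT chemistry, per the labels' protocols. STAR 2.7.8a, Partek, DESeq2 and mm39 appear in the submitters' processing notes, with no step assigned. The authors' deposited table holds estimated counts per gene, not scaled between libraries, and 38.0% of its values are not whole. The authors' second table, a normalized signal for 11281 genes, served only as a gene list for an alternative. Groups came from the sample titles.

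Counts were rounded, filtered with filterByExpr (minimum count 10), scaled by TMM and fitted with 1 coefficient per group by edgeR 4.0.16 robust quasi-likelihood (R 4.3.3). P-values were adjusted over all genes tested, and autosomal genes counted. At totals of 19867201 to 26895876 counts, depth limits mainly genes of a few CPM. The edgeR step was tested on simulated counts. Alternatives were DESeq2 1.42.0, limma 3.58.1 voom with quality weights, other scalings and filters, a replicate block, the male transcript share as covariate, Y-positive IgG-IFNa libraries and single-library omissions. GC offsets and the covariate without IgG-IFNa 3 were added after seeing the data. UTRs were taken from GENCODE vM21 and promoter windows from RefSeq GRCm38.p6; gene positions are from the deposited table.

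The members and lists were chosen with earlier results of these data known. Named genes were up to 12 per direction in each fit with the largest change, a mean log2 CPM of at least 3 and no overlap in either arm, up to 3 per list by p, and a fixed set. Rgs16, Map2, 2510039O18Rik, Gm12346, Gm8355 and Gm15459 are named for small counts or shared reads, after their values were seen.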

Additional observations from a re-analysis of the deposited data

Results flagged for a closer look

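In 5 of the 80 genes examined for a library far from its group, IgG-IFNa library 1 stood apart from the other 3 IgG-IFNa libraries, beyond Dixon's 95% critical value for 4 samples. Chance flags about 1 in 20 groups. The ratio of the gap to the range of log2 CPM was 0.9458 for Arf6, at 148 CPM against 46.7 to 49.8. It was 0.9157 for Cd3e, at 810.7 against 975.5 to 992.2. For Ctbp1 it was 0.9047, at 91.6 against 52.2 to 55.1. For Lamp1 it was 0.864, at 118 against 44.8 to 51.1. For Fcgbp, a goblet cell mucus protein, it was 0.8601, at 45.7 against 62.1 to 65.3. Groups of 3 were not tested.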

How the results depend on the processing

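The averaged effect gave 101 calls with 13 libraries and 109 with 12. These became 22 and 16 at an adjusted p of 0.01, 282 and 298 with DESeq2, 249 and 196 with limma voom quality weights, 0 and 14 with the male share covariate, and 0 and 11 with that covariate without IgG-IFNa 3. They became 64 with the Y-positive IgG-IFNa libraries (13 libraries; 138 with 12). Omitting single libraries gave 26 to 133 and 2 to 159, the 2 without UC7-IFNa 3, and the smallest of the first, 26, without UC7-PBS 2. The IFNa arm (11 calls) gave 119 with DESeq2, 4 with the male share covariate and 0 to 51 over omissions. The PBS arm (0 calls) gave 62 with DESeq2 and 0 to 3 over omissions, and the difference between arms (0 calls) gave 3 with DESeq2 and 0 to 1. The causes were not tested. Relative log expression scaling, no filter, a stricter filter, the additive model, the authors' gene list and the transcript GC offset kept both averaged counts within 1.5 times.

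With a replicate block the averaged effect gave 5 calls with 13 libraries, 8 with 12, and 0 in the IFNa arm (706 at an unadjusted p under 0.05). The deviations of same-numbered libraries correlated from −0.512 to 0.328, median −0.07, over 18 pairs, so the numbers were not taken as pairing.

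Of 46 called genes among those examined, each read in 1 fit (13 libraries where called there, otherwise 12), 0 changed sign. However, 0 of the 46 kept their call in every alternative, and 1 kept it with the male share covariate. With the male share covariate in the 12-library fit, Tmprss6, Spp1, Klrb1a, Bcl11b, Hspe1 and Ighd passed. Of 34 uncalled, 15 changed sign in some alternative.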

Other observations

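Of 61 type I interferon-stimulated genes tested, 0 passed in the averaged effect (edgeR quasi-likelihood), with 4 at an unadjusted p under 0.05 with 13 libraries and 8 with 12, and the median was 0.058 and 0.12. With 13 libraries the median was −0.16 in the PBS arm and 0.25 in the IFNa arm, and the difference between arms was not tested for the list. Ifit3, an interferon-induced antiviral gene, was 3.66, 4.25 and 6.19 CPM in IgG-PBS and 2.77, 2.53 and 1.44 in UC7-PBS. With IFNa it was 49.9, 63.9, 47.7 and 33.3 after IgG and 79.3, 37.2 and 76.2 after UC7-13D5, where 37.2 belongs to UC7-IFNa library 2. The log2 fold change was −1.07 with PBS and 0.40 with IFNa. The difference had an unadjusted p of 0.00439 (edgeR quasi-likelihood, adjusted p = 1), and with 12 libraries 0.000202 (adjusted p = 0.655).

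Klrc1, which encodes the inhibitory receptor NKG2A, was 11.4, 15.3 and 21.3 CPM in IgG-PBS and 67.8, 64.0 and 23.4 in UC7-PBS, and 6.24 to 13.8 in IgG-IFNa and 11.0 to 16.2 in UC7-IFNa. The averaged log2 fold change was 1.07 (edgeR quasi-likelihood, adjusted p = 0.0738), from 1.69 with PBS and 0.44 with IFNa.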
